A study of Mus musculus with 6 samples.

Results

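The genes described here encode the proteins of the mitochondrial ribosome, and were taken as every protein-coding gene whose symbol is Mrpl or Mrps followed by a number and, in a few cases, the letter a, b or c. This gave 78 of the 18019 genes in the table, 49 named for the large subunit (Mrpl) and 29 for the small subunit (Mrps). The rule used names only and no measured value. RNA was measured in heart tissue of mice with wild-type genotype, 8 weeks after the aortic arch was banded (transverse aortic constriction, TAC), which puts a pressure load on the left ventricle. All 6 samples had TAC, so an unoperated heart is not part of the comparison. The 3 VNS-TAC samples came from mice given an adeno-associated virus (rAAV-ChAT-hChR2[H134R]-GFP) in the dorsal motor nucleus of the vagus, which places a light-gated channel in neurones that use the promoter of choline acetyltransferase, and light was used to activate these vagal neurones. The 3 Ctrl-TAC samples came from mice given rAAV-ChAT-GFP, with the fluorescent protein and no channel. The sources used here do not give age, sex, strain or light settings, and nothing in the labels says that each library was a separate animal, so p-values measure only the spread between libraries, which may be partly technical.

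The mitochondrial ribosome makes the few proteins that the mitochondrial genome encodes, all of them core subunits of the respiratory chain and ATP synthase. Its RNAs come from mitochondrial DNA, whereas all of its proteins are encoded in the nucleus, made in the cytosol and imported. Heart muscle is rich in mitochondria and depends on them for nearly all of its ATP, and inherited defects of several of these proteins, among them MRPL3, MRPL44 and MRPS22, are known causes of cardiomyopathy in people. Proteins numbered as in bacteria have a bacterial counterpart in most cases, and those with higher numbers were added in the mitochondrial lineage. Names do not always match the place of the protein, since the products of Mrps18a and Mrps30 sit in the large subunit and the product of Mrps36 is now known as a part of the oxoglutarate dehydrogenase complex. They are counted below as the names have them.

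Several genes of this family are known targets of nuclear respiratory factor 1 (NRF1) and of the ETS-family factor GABP, which link nuclear genes to mitochondrial content, so the bases before the start of each gene were searched for their sites. RefSeq windows (build GRCm38.p6) of 250 bases upstream of a transcript start, the one nearest the 5′ end of the gene, were at hand for 69 of the 78 genes and for 17492 protein-coding genes in all. The NRF1 core GCATGCGC, read on both strands, was present in 8 of the 69 windows (11.6%) and in 2.98% of all windows. It is a part of the longer site that NRF1 binds. For each of these 8 windows, the match nearest the start is shown 5′ to 3′ on the strand of the gene, with up to 10 bases on each side, because this share rests on these windows. With both strands and overlapping matches counted, the window of Mrpl32 held 4 matches and those of Mrpl39 and Mrpl9 held 2 each, the other of which shares bases with the capitals printed for Mrpl39 and Mrpl9. Capitals mark the core, which reads GCGCATGC where it lies on the opposite strand.
Mrpl10: ccagctccacGCATGCGCatagcggccc
Mrpl17: ccgagttactGCGCATGCgtc
Mrpl22: gcctcggactGCGCATGCgtatagtcag
Mrpl32: cggacttaacGCATGCGCtcagcccgcg
Mrpl33: accggaacccGCGCATGCcccg
Mrpl39: ggagaggcgcGCATGCGCccccgcgtgg
Mrpl9: gcgcagctgcGCATGCGCggggtccttc
Mrps18b: acggcccgacGCATGCGCactgggagca
These stretches are Mrpl10 at chr11:97041438-97041465 (plus strand), Mrpl17 at chr7:105811088-105811108 (minus strand), Mrpl22 at chr11:58171621-58171648 (plus strand), Mrpl32 at chr13:14613042-14613069 (minus strand), Mrpl33 at chr5:31613929-31613950 (plus strand), Mrpl39 at chr16:84735350-84735377 (minus strand), Mrpl9 at chr3:94443300-94443327 (plus strand), Mrps18b at chr17:35916646-35916673 (minus strand).

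The ETS site CCGGAAGT, also read on both strands, was found in 9 of the 69 windows (13.0%), against 3.82% of all windows, and in none of the windows that held the NRF1 core. Capitals mark the site, which reads ACTTCCGG where it lies on the opposite strand. The 9 matches are given for the same reason.
Mrpl18: actgaaaacgCCGGAAGTagggggctgc
Mrpl27: tccgcaagacCCGGAAGTagatctatcc
Mrpl3: gagaaacggaCCGGAAGTggcccggctg
Mrpl43: aaccccggaaCCGGAAGTcacc
Mrpl51: aggggctaaaCCGGAAGTatttgactgg
Mrps18c: gggtcacgtgACTTCCGGcccgggaagc
Mrps22: acctctcgagCCGGAAGTtgc
Mrps26: ctccgcggccACTTCCGGgccgggc
Mrps27: tggtaggaccACTTCCGGcggaggcggg
Their places are Mrpl18 at chr17:12916314-12916341 (minus strand), Mrpl27 at chr11:94653726-94653753 (plus strand), Mrpl3 at chr9:105053239-105053266 (plus strand), Mrpl43 at chr19:45006443-45006464 (minus strand), Mrpl51 at chr6:125192100-125192127 (plus strand), Mrps18c at chr5:100798592-100798619 (plus strand), Mrps22 at chr9:98601680-98601700 (minus strand), Mrps26 at chr2:130563732-130563756 (plus strand), Mrps27 at chr13:99344727-99344754 (plus strand). The start used lies inside the span of the gene for 21 of the 69 genes. For Mrpl22, Mrpl9 and Mrpl18 it does so by 1621, 182 and 1696 bases, so their printed stretches are within the annotated gene. A match describes the letters of a window, not binding. Among these 17 genes, log2 fold changes (VNS-TAC less Ctrl-TAC) ran from -0.49 (Mrpl3) to 0.43 (Mrps26), the lowest and the highest of all 78, and both of these genes carry the ETS site. The median was 0.0012 in genes with the NRF1 core and -0.020 in those without, and -0.080 and -0.0057 for the ETS site. Other motifs were searched in the same windows. CCAAT was in 36.2% of the members' windows against 36.5% of all, and GGGCGG in 47.8% against 42.7%. The YY1 site AAGATGGCG was in 2.90% (2 windows) against 0.675%. The windows of all genes were not limited to genes expressed here, and the shares were not tested.

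Expression was measured in FPKM, fragments per kilobase of gene scaled to library size, which allows levels of different genes to be compared. Fold changes are differences of mean log2(FPKM + 1). Each library's FPKM values summed to between 516493 and 585330, and the depth in reads is unknown. All 78 genes were expressed well above the filter of a mean of 1 FPKM, so all of them were tested. Mean levels ran from 7.06 FPKM (Mrpl17) to 333 (Mrpl42), with a median of 49.7 FPKM, and the lowest single value was 3.60 FPKM, for Mrpl19 in VNS-TAC 3. Medians for the large and the small subunit were 50.4 and 46.0 FPKM. Mrpl42, a protein with no bacterial counterpart, stood at 332, 347 and 244 FPKM in VNS-TAC 1, 2 and 3 and at 376, 383 and 315 in Ctrl-TAC 1, 2 and 3. Next came Mrpl12, the protein of the flexible stalk that recruits translation factors, at 361, 249 and 155 FPKM against 247, 253 and 231, and Mrpl30 at 272, 257 and 234 FPKM against 223, 218 and 206. In the small subunit the highest levels were those of Mrps21 (266, 209 and 164 FPKM against 230.3, 218 and 202), Mrps23 (170.0, 145 and 127 FPKM against 145, 139 and 135) and Mrps36 (151, 114 and 106 FPKM against 117, 113 and 116), in the same order of libraries. Of these 6 genes, Mrpl30 alone did not overlap between the groups.

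The clearest feature of these genes was a shift among the VNS-TAC libraries that most of them shared, while no gene passed the adjusted test between the groups. The median of the 49 large subunit genes, set against the mean of the Ctrl-TAC libraries on the log2(FPKM + 1) scale, was 0.24, -0.022 and -0.24 in VNS-TAC 1, 2 and 3, with Ctrl-TAC between -0.069 and 0.038. For the 29 small subunit genes it was 0.30, 0.054 and -0.20 in VNS-TAC 1, 2 and 3, with Ctrl-TAC between -0.070 and 0.022. VNS-TAC 1 thus lay above all 3 control libraries in both subunits, VNS-TAC 3 below all of them, and VNS-TAC 2 near them. VNS-TAC 1 held the highest of the 6 values in 56 of the 78 genes (71.8%), against 18.9% of all 11422 genes tested, and VNS-TAC 3 held the lowest in 51 (65.4%), against 26.4% of all genes.

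**Figure D1:**
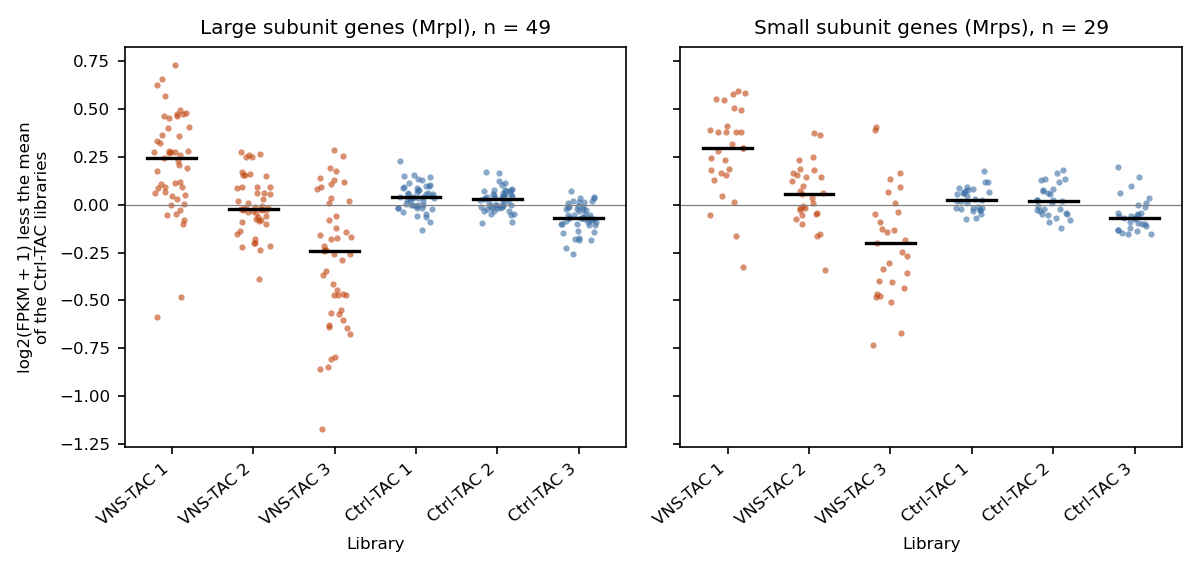
Level of each mitochondrial ribosomal protein gene in each library, as log2(FPKM + 1) less the mean of the 3 Ctrl-TAC libraries, for large (left) and small (right) subunit genes. Each point is a gene and each bar the median of a library, which is 0.24 and 0.30 in VNS-TAC 1 and -0.24 and -0.20 in VNS-TAC 3.

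Summed over the 78 genes, FPKM came to 6023, 5046 and 4132 in VNS-TAC 1, 2 and 3 and to 5097, 5026 and 4698 in Ctrl-TAC 1, 2 and 3. As a share of all FPKM of the library this was 1.03%, 0.932% and 0.777% in those of VNS-TAC and 0.954%, 0.966% and 0.910% for Ctrl-TAC, so the control range lay inside the VNS-TAC range. The order of the 3 VNS-TAC libraries held under 5 other treatments of the values (size factors, quantile normalization, an equal sum per library, and removal of the trend with GC content or with transcript length). Across all 6 treatments the median of the 78 genes was 0.12 to 0.40 in VNS-TAC 1, -0.056 to 0.087 in VNS-TAC 2 and -0.26 to -0.21 in VNS-TAC 3. Less the median of all genes in the same library, VNS-TAC 1 stood at 0.38 and VNS-TAC 3 at -0.22. With quantile normalization or the length trend removed, VNS-TAC 1 was at 0.19 on this measure, while VNS-TAC 3 lay between -0.24 and -0.22 in all 6. In a bulk sample, fewer cells that express these genes and less RNA per cell cannot be told apart.

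Individual genes show how wide the range was. Those with the largest gap between VNS-TAC 1 and VNS-TAC 3, named after their values were seen, were Mrpl28, Mrpl34, Mrpl19, Mrpl12 and Mrpl3. Mrpl28 stood at 139.5, 99.8 and 55.8 FPKM in VNS-TAC 1, 2 and 3 and at 97.6, 103 and 102 in Ctrl-TAC 1, 2 and 3. Mrpl34 stood at 149, 90.8 and 61.4 FPKM against 112, 111 and 99.4 in the same order, and Mrpl19 at 9.72, 7.19 and 3.60 FPKM against 7.24, 7.56 and 7.20. In Mrpl28, Mrpl34, Mrpl19 and Mrpl12, VNS-TAC 1 was the highest and VNS-TAC 3 the lowest of the 6 libraries, and the 3 control values lay close together between them. The median gene had an SD of 0.250 on the log2 scale among the VNS-TAC libraries and 0.0809 among the Ctrl-TAC libraries, compared with 0.248 and 0.111 over all genes tested.

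VNS-TAC 1 was above VNS-TAC 3 in 72 of the 78 genes, by a median of 0.45 on the log2 scale, while over all genes tested it was above in 40.4%, with a median of -0.13. The 6 genes that were lower in VNS-TAC 1 were Mrpl50, Mrps18c, Mrpl1, Mrpl27, Mrpl52 and Mrpl9. Mrpl1, which forms the mobile stalk beside the tRNA exit, stood at 7.35, 10.01 and 9.04 FPKM in VNS-TAC 1, 2 and 3 and at 11.9, 10.98 and 9.27 in Ctrl-TAC 1, 2 and 3. Mrpl27 stood at 47.4, 46.7 and 53.5 FPKM against 45.7, 44.3 and 43.8 and Mrpl9 at 55.8, 53.5 and 60.4 FPKM against 53.8, 52.9 and 57.5. Several others barely differed among the VNS-TAC libraries, among them Mrps10, Mrps30 and Mrps26, whose values are given below.

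Comparing the groups asks whether activating vagal neurones altered the RNA of the mitochondrial ribosome in the overloaded heart. No member passed an adjusted p of 0.05 in limma (Benjamini-Hochberg over 11422 genes), where 0.0% of all genes did, and the smallest adjusted p among the 78 was 0.232. Of the large subunit genes 23 were higher and 26 lower on average, with a median log2 fold change of -0.020. Of the small subunit genes 17 were higher and 12 lower, with a median of 0.055. All genes tested had a median of -0.084, and 38.2% of them were higher. Without VNS-TAC 1 the medians were -0.17 and -0.070 for the large and small subunit, and without VNS-TAC 3 they were 0.093 and 0.17, so the sign for each subunit depended on which library was left out. Higher genes then numbered 12 and 9 without VNS-TAC 1, and 36 and 23 once VNS-TAC 3 was left out. Less the median of all genes, the large subunit stood at 0.065, but at -0.012 after quantile normalization and -0.024 after removal of the length trend. The small subunit stood at 0.14, and at 0.053 and 0.058.

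Fold changes were small. For 58 of the 78 genes (74.4%) the log2 fold change lay within 0.2 of 0, compared with 51.0% of all genes, and the SE of a gene ran from 0.10 to 0.30. At an unadjusted p under 0.05, limma gave 3 members higher (3.85%) and 0 lower, against 3.79% and 11.3% of all genes (15.0% in either direction). The share of higher members is thus near the background. The 3 values of VNS-TAC all lay above those of Ctrl-TAC in 11 members (14.1%), against 8.01% of all genes, and all below in 3 (3.85%), against 17.4% (25.4% in either direction). These shares were not tested against each other. The counts at an unadjusted p under 0.05 turned on single libraries, with 5 large and 4 small subunit genes without VNS-TAC 1, 10 and 8 without VNS-TAC 3, and 0 and 2 without any one of the Ctrl-TAC libraries. Shares of all genes at this threshold in those fits are not given here, so these counts are not a result about the members.

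**Figure D2:**
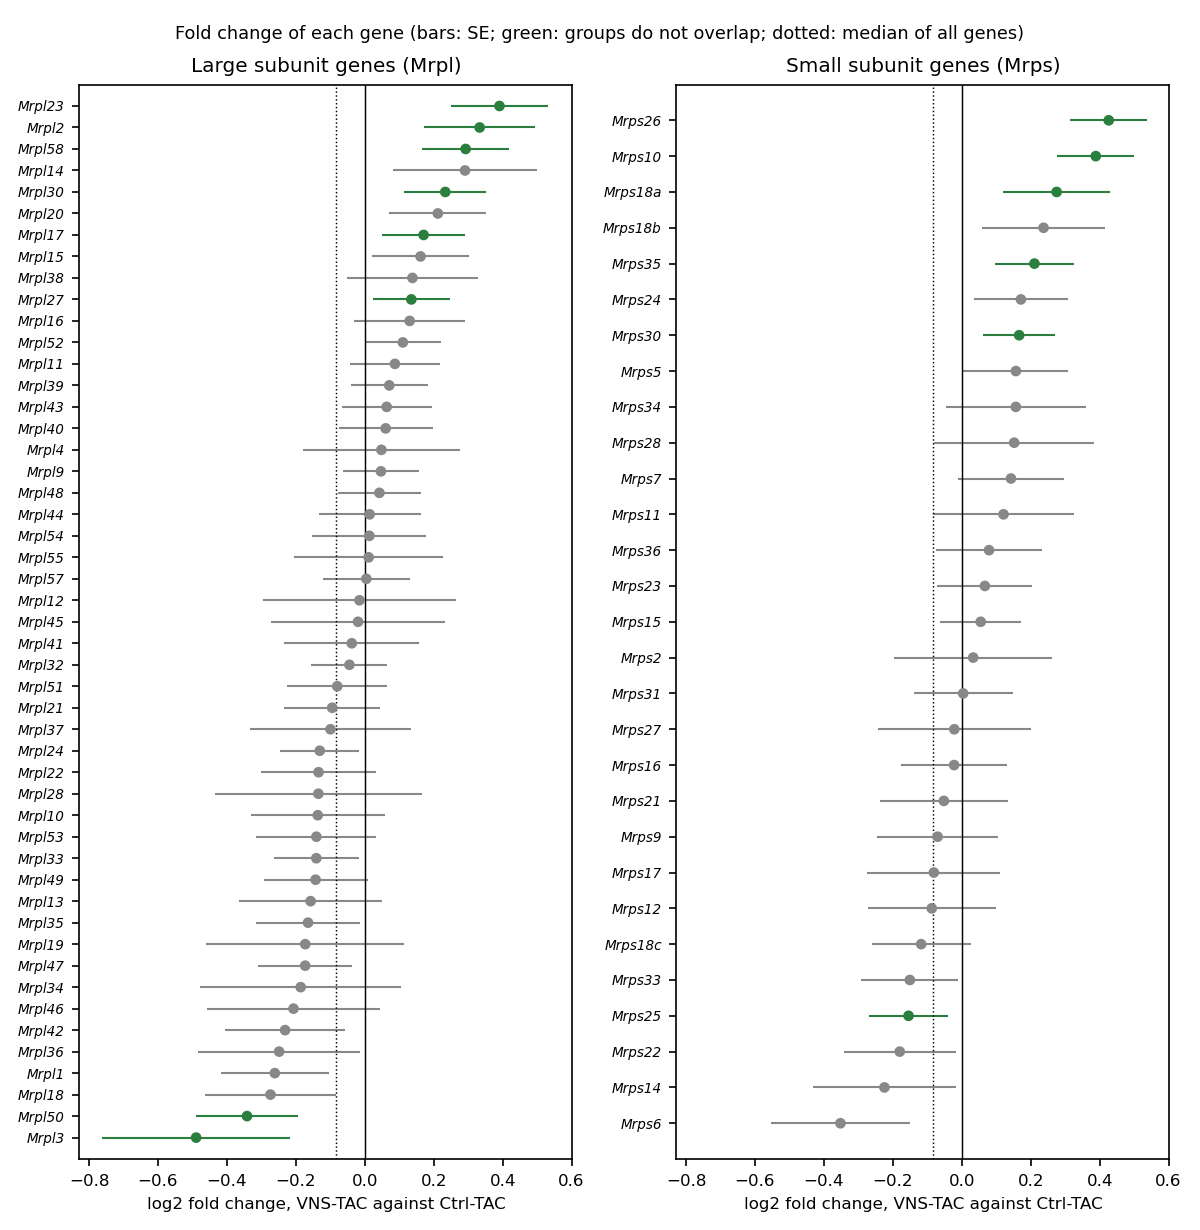
Log2 fold change (VNS-TAC less Ctrl-TAC) of each large (left) and small (right) subunit gene, with its SE, on the log2(FPKM + 1) scale. Green marks the 11 genes whose VNS-TAC values all lay above and the 3 whose values all lay below those of Ctrl-TAC, and the dotted line marks the median of all genes tested, -0.084.

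By the class of name, the 28 large subunit genes numbered as in bacteria (up to 36) had a median of -0.070 with 12 higher, and the 21 with later numbers 0.0046 with 11 higher. In the small subunit, the 16 genes numbered up to 21 had a median of 0.0055 with 8 higher, and the 13 later ones 0.079 with 9 higher. All 4 classes showed the same order of libraries, with medians of 0.23 to 0.32 in VNS-TAC 1 and -0.28 to -0.19 in VNS-TAC 3.

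Among the small subunit genes, Mrps26 and Mrps10 had the smallest p of all 78. Mrps26, which has no bacterial counterpart (chromosome 2, 130563757 to 130565394, GRCm38, as for all positions below), stood at 51.7, 47.5 and 48.5 FPKM in VNS-TAC 1, 2 and 3 and at 35.9, 34.3 and 39.0 in Ctrl-TAC 1, 2 and 3. Its groups did not overlap, and its log2 fold change was 0.43 ± 0.11 (SE; limma adjusted p = 0.232). Mrps10, a protein of the head of the small subunit (chromosome 17, 47368887 to 47381418), stood at 29.8, 28.9 and 29.4 FPKM in VNS-TAC 1, 2 and 3 and at 24.1, 21.4 and 21.1 in Ctrl-TAC 1, 2 and 3. Here too the groups were apart, with a log2 fold change of 0.39 ± 0.11 (adjusted p = 0.244). In both genes the 3 VNS-TAC values lay close together, unlike those of most members. Both were past the adjusted threshold only with array weights (limma adjusted p = 0.0245 and 0.0496). In that fit VNS-TAC 2 had a weight of 2.82, and VNS-TAC 1 and 3 had weights of 0.246 and 0.247. It put 1016 of all 11422 genes tested past the threshold, and 2 of the 78 members, so passing there does not set these genes apart. Mrps35 (79.8, 76.2 and 67.0 FPKM against 63.0, 65.0 and 63.9) and Mrps30 (32.1, 31.1 and 31.6 FPKM against 28.5, 26.9 and 28.7) also had VNS-TAC values that all exceeded those of Ctrl-TAC, with fold changes of 0.21 and 0.17 on the log2 scale (adjusted p = 0.406 and 0.460).

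Mrpl23, whose protein lies at the mouth of the exit tunnel (chromosome 7, 142532467 to 142540747), stood at 144, 111 and 114 FPKM in VNS-TAC 1, 2 and 3 and at 96.9, 95.8 and 86.6 in Ctrl-TAC 1, 2 and 3, with no overlap and a log2 fold change of 0.39 ± 0.14 (adjusted p = 0.273). A pseudogene carries its name, so reads may have been shared. Mrpl2, a protein near the catalytic centre (chromosome 17, 46646172 to 46650132), stood at 145, 108 and 97.4 FPKM against 93.5, 88.0 and 92.2 and also did not overlap, mainly through VNS-TAC 1. Mrpl58, a peptidyl-tRNA hydrolase that frees stalled ribosomes (chromosome 11, 115403724 to 115412674), was at 78.5 ± 9.60 FPKM against 63.6 ± 2.21 (SD, n = 3). Mrpl30, at 254 ± 18.9 FPKM against 216 ± 8.60 (SD, n = 3), completed the 4 higher large subunit genes with the smallest p. The adjusted p of Mrpl2, Mrpl58 and Mrpl30 was 0.367, 0.337 and 0.381.

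Of the lower genes, Mrpl3, a protein near the catalytic centre (chromosome 9, 105053268 to 105077466), had the largest difference. It stood at 67.5, 61.2 and 31.2 FPKM in VNS-TAC 1, 2 and 3 and at 71.3, 75.1 and 67.9 in Ctrl-TAC 1, 2 and 3. All VNS-TAC values were below those of Ctrl-TAC, but VNS-TAC 1 came within 1 FPKM of Ctrl-TAC 3, and the log2 fold change of -0.49 ± 0.27 (adjusted p = 0.415) was -0.15 without VNS-TAC 3. Mrpl50 (chromosome 4, 49512597 to 49521083) stood at 15.7, 20.8 and 20.2 FPKM in VNS-TAC 1, 2 and 3 and at 24.6, 26.1 and 21.6 in Ctrl-TAC 1, 2 and 3, also without overlap. Its log2 fold change was -0.34 ± 0.15 (adjusted p = 0.339) and -0.074 with the GC trend removed. Mrpl18, which binds the structural RNA of the central protuberance, stood at 125, 105 and 75.00 FPKM against 124, 125 and 113, with VNS-TAC 1 level with the highest control library. In the small subunit, Mrps25 was the only lower gene without overlap, at 8.34, 8.74 and 8.08 FPKM against 9.57, 9.85 and 8.93. Mrps6, at 44.4, 34.5 and 26.1 FPKM against 41.7, 40.4 and 50.5, and Mrps14, at 46.6, 37.4 and 25.8 FPKM against 44.1, 42.3 and 39.0, overlapped, with VNS-TAC 3 far below the other libraries in both.

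**Figure D3:**
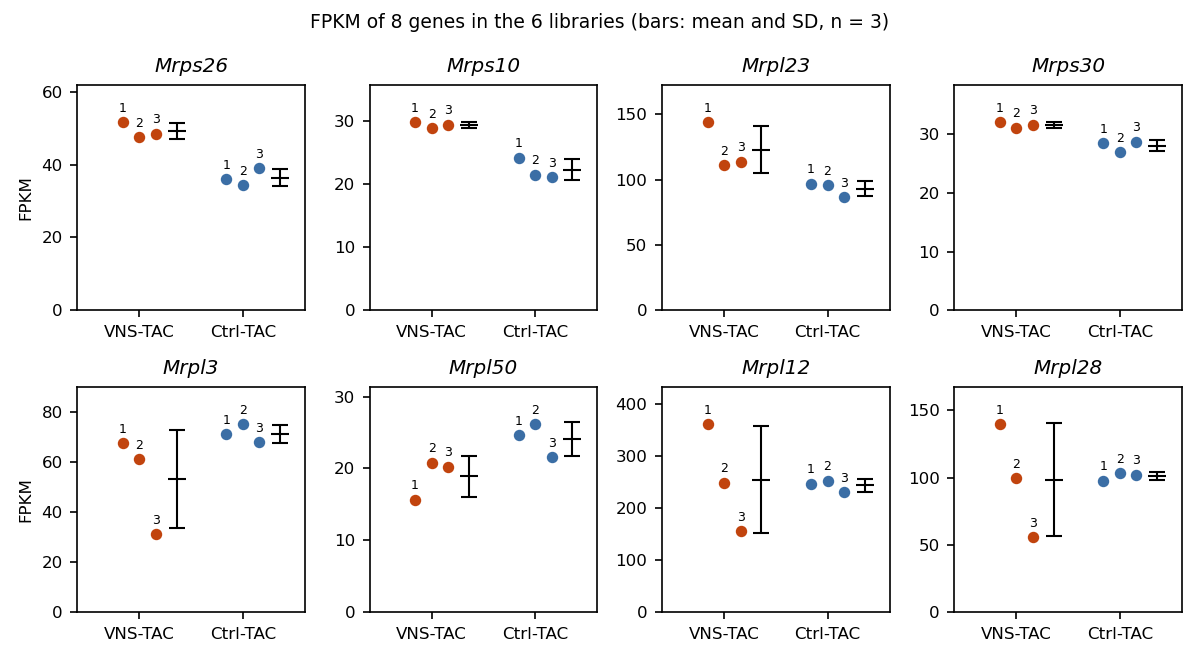
FPKM of 8 mitochondrial ribosomal protein genes in the 3 VNS-TAC and 3 Ctrl-TAC libraries, numbered 1 to 3, with the mean and SD of each group beside the points. Mrps26, Mrps10 and Mrps30 are even within VNS-TAC and above Ctrl-TAC, whereas Mrpl12 and Mrpl28 lie on both sides of the controls, at 361, 249 and 155 and at 139.5, 99.8 and 55.8 FPKM in VNS-TAC 1, 2 and 3.

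The 3 Mrps18 genes encode related proteins that occupy different places in the ribosome. Mrps18a, in the large subunit (chromosome 17, 46111004 to 46128908), stood at 136, 101 and 96.3 FPKM in VNS-TAC 1, 2 and 3 and at 89.1, 95.4 and 86.7 in Ctrl-TAC 1, 2 and 3, without overlap. Mrps18b (chromosome 17, 35910380 to 35916440) stood at 59.0, 38.3 and 42.7 FPKM against 39.0, 42.5 and 35.2, and Mrps18c (chromosome 5, 100798759 to 100804467) at 37.8, 48.0 and 46.4 FPKM against 53.9, 46.2 and 43.4. Both overlapped. Log2 fold changes were 0.28, 0.24 and -0.12 for a, b and c, with SEs of 0.16, 0.18 and 0.14 and adjusted p values in limma of 0.418, 0.530 and 0.695. With the GC trend removed that of Mrps18c was 0.091.

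Besides Mrpl3, the genes named above for inherited cardiomyopathy are Mrpl44 and Mrps22. Mrpl44, which has the fold of a ribonuclease, stood at 47.1, 41.2 and 33.0 FPKM in VNS-TAC 1, 2 and 3 and at 39.1, 40.5 and 39.3 in Ctrl-TAC 1, 2 and 3, a log2 fold change of 0.014 ± 0.15. Mrps22, another protein without a bacterial counterpart, stood at 13.7, 14.2 and 9.94 FPKM against 13.95, 15.7 and 13.2, a change of -0.18 ± 0.16. Mrpl45 and Mrps12 were named for their roles in the ribosome. Mrpl45, which holds the ribosome at the inner membrane, stood at 60.6, 45.2 and 28.1 FPKM against 42.6, 44.0 and 43.0 (-0.020 ± 0.25), and Mrps12, part of the decoding centre, at 71.2, 58.7 and 42.8 FPKM against 62.5, 58.0 and 59.4 (-0.087 ± 0.19). None of these 4 had an adjusted p below 0.592 in limma, and in each the control values lay within the range of the VNS-TAC values or overlapped it.

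Proteins of the ribosome that have other names were outside the rule, and 5 were listed. Dap3, a GTP-binding protein of the small subunit, stood at 85.9, 76.9 and 78.7 FPKM against 65.6, 68.1 and 74.2 without overlap, and Ptcd3, an RNA-binding protein of the small subunit, at 32.2, 41.1 and 25.4 FPKM against 43.6, 51.8 and 41.2, also without overlap and lower. Aurkaip1 (89.9, 73.7 and 66.4 FPKM against 72.1, 67.1 and 64.2), Gadd45gip1 (44.3, 38.3 and 30.0 FPKM against 37.5, 36.4 and 33.8) and Chchd1 (78.0, 73.5 and 60.2 FPKM against 78.2, 75.6 and 65.9) all had their lowest VNS-TAC value in VNS-TAC 3. The adjusted p was 0.399 for Dap3 and 0.307 for Ptcd3.

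Other genes of mitochondrial protein synthesis, taken by their known roles, passed the adjusted threshold in 0 cases. Translation factors had a median log2 fold change of -0.25, with 2 of 13 higher, and a library median of -0.11, -0.062 and -0.48 in VNS-TAC 1, 2 and 3. Tufm, the elongation factor that brings tRNA to the ribosome, stood at 189, 161 and 79.0 FPKM in VNS-TAC 1, 2 and 3 and at 156, 157 and 175 in Ctrl-TAC 1, 2 and 3, lowest in VNS-TAC 3, and Gfm1, which moves the ribosome along, at 63.1, 64.9 and 45.6 FPKM against 68.1, 72.3 and 76.4. Mtrf1l, a release factor, stood at 2.00, 2.13 and 2.31 FPKM against 3.64, 3.87 and 2.59 with no overlap (log2 fold change -0.46, adjusted p = 0.264). Oxa1l, which inserts newly made proteins into the inner membrane, stood at 66.8, 53.4 and 50.0 FPKM against 46.5, 45.7 and 51.1. Assembly and rRNA modification factors had a median of 0.047 with 14 of 25 higher. Within them, Ddx28, an RNA helicase, stood at 6.84, 7.11 and 8.09 FPKM against 5.82, 5.33 and 6.03 and Tfb1m, the methyltransferase of the small ribosomal RNA, at 5.61, 5.13 and 5.38 FPKM against 7.63, 7.48 and 6.73, apart in opposite directions. Mitochondrial tRNA synthetases had a median of -0.081 with 7 of 20 higher. Of these, the enzymes for proline and cysteine, Pars2 and Cars2, stood at 3.61, 3.44 and 4.28 FPKM against 2.20, 2.16 and 2.79 and at 26.5, 20.99 and 14.5 FPKM against 27.4, 23.2 and 26.1.

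Mitochondrial transcription and RNA genes had a median of -0.025 with 10 of 23 higher. Hsd17b10, a dehydrogenase that is also a subunit of mitochondrial RNase P, stood at 199, 192 and 264 FPKM in VNS-TAC 1, 2 and 3 and at 148, 141 and 148 in Ctrl-TAC 1, 2 and 3, with no overlap and a log2 fold change of 0.57 ± 0.15 (adjusted p = 0.232). Mterf2, which binds mitochondrial DNA, stood at 5.06, 8.21 and 6.65 FPKM against 9.39, 10.8 and 8.94 and Polrmt, the mitochondrial RNA polymerase, at 12.5, 11.9 and 11.8 FPKM against 11.6, 9.96 and 11.6. Regulators of mitochondrial biogenesis had a median of -0.10 with 2 of 13 higher. Esrra, a nuclear receptor for energy genes, stood at 137, 110.0 and 94.0 FPKM against 92.3, 97.97 and 89.8, and Nrf1 at 5.61, 4.88 and 7.14 FPKM against 5.02, 5.14 and 5.02. The genes of GABP overlapped between the groups and were lower on average. Gabpa stood at 4.35, 8.22 and 9.67 FPKM against 9.97, 10.4 and 7.57 (log2 fold change -0.34 ± 0.27). Gabpb1 stood at 4.54, 4.55 and 4.93 FPKM against 5.45, 5.48 and 4.35 (-0.098 ± 0.13). Myc, a growth-related transcription factor, stood at 3.07, 2.11 and 5.23 FPKM against 5.81, 5.06 and 6.32 and overlapped through VNS-TAC 3 (log2 fold change -0.65, adjusted p = 0.299). Ppargc1a, the coactivator known for driving biogenesis, stood at 6.45, 18.1 and 17.7 FPKM against 14.9, 18.6 and 17.3, lowest in VNS-TAC 1. That is the library in which most ribosomal genes were highest. The regulators did not move as a set, since VNS-TAC 1 was the highest of the 6 libraries in 5 of the 13, among them Ppargc1b, Perm1 and Sirt3. A link to the ribosomal genes was not tested. Mitochondrial chaperones and proteases had a median of -0.021 with 6 of 15 higher, and Hspd1, the mitochondrial chaperonin, stood at 78.7, 110.0 and 64.9 FPKM against 154, 184 and 135 (log2 fold change -0.91, adjusted p = 0.208). Clpp, a protease of the matrix, stood at 63.9, 56.5 and 50.0 FPKM against 51.5, 50.3 and 42.8.

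The order of libraries seen in the mitochondrial ribosome was shared by nuclear genes of the respiratory chain and not by those of the cytosolic ribosome. The 37 complex I subunit genes had library medians of 0.44, 0.20 and -0.21 in VNS-TAC 1, 2 and 3, with VNS-TAC 1 highest of all libraries in 86.5% and VNS-TAC 3 lowest in 67.6%. Complexes III to V gave 0.42, 0.19 and -0.082 in VNS-TAC 1, 2 and 3, and the tricarboxylic acid cycle 0.31, 0.19 and -0.22 in VNS-TAC 1, 2 and 3. The 81 cytosolic ribosomal protein genes gave 0.29, 0.10 and 0.67 in VNS-TAC 1, 2 and 3, with VNS-TAC 3 lowest in 2.47% of them and VNS-TAC 1 highest in 3.70%. In VNS-TAC 3 the cytosolic and the mitochondrial ribosome therefore lay on opposite sides of the controls, at 0.67 and -0.24, and this held in all 6 treatments of the values (0.55 to 0.69 and -0.26 to -0.21). It concerns 1 library, so it has no replicate check. By group, the median log2 fold change was 0.14 for complex I (32 of 37 higher), 0.15 for complexes III to V (35 of 41 higher), 0.095 for the tricarboxylic acid cycle (12 of 18 higher) and 0.34 for the cytosolic ribosome (78 of 81 higher), against 0.0043 for the 78 genes. The differences between lists were not tested.

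Within each of these lists, single genes had fold changes in both directions. Ndufv1 and Ndufs1, both of complex I, had fold changes of 0.35 and -0.35 on the log2 scale, with Ndufv1 at 757, 681 and 708 FPKM against 545, 558 and 577 and Ndufs1 at 169, 230.0 and 170.3 FPKM against 236, 259 and 225. Atp5c1 and Atp5j, both of ATP synthase, had changes of 0.38 and -0.21, and Idh2 and Sucla2 of the tricarboxylic acid cycle 0.34 and -0.56. In the cytosolic ribosome, Rps13 stood at 575, 480.4 and 594 FPKM against 397, 356 and 376 (0.54) and Rpl7l1, a paralogue with a role in ribosome assembly, at 24.5, 18.1 and 18.3 FPKM against 22.7, 23.4 and 21.6 (-0.16). The adjusted p in limma was at least 0.221 for these 8 genes.

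**Figure D4:**
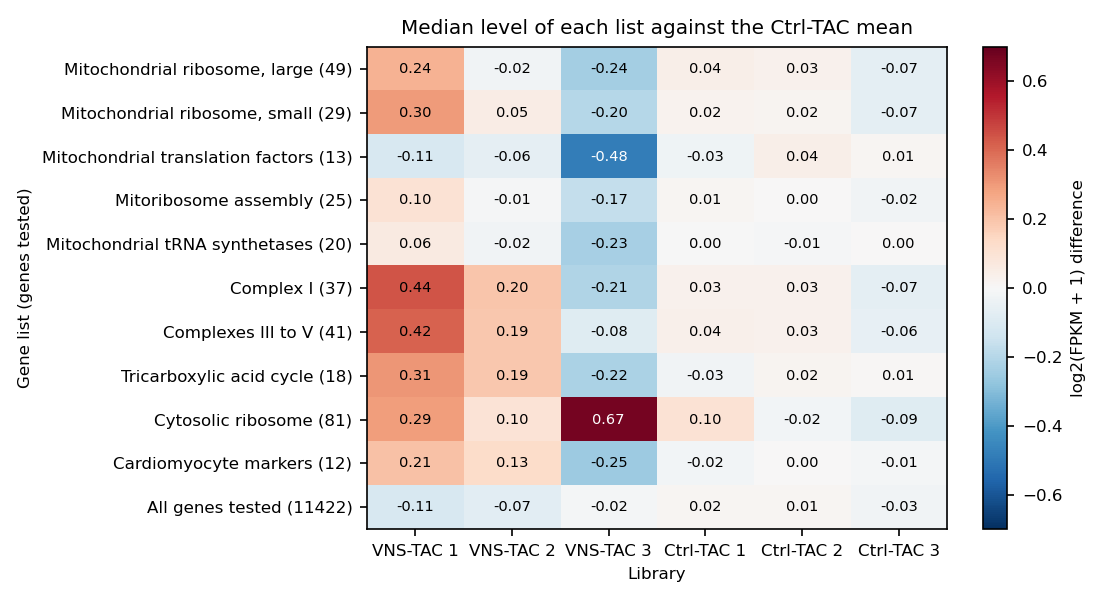
Median level of gene lists in each library, as log2(FPKM + 1) less the mean of the Ctrl-TAC libraries, with the number of genes tested in brackets. The mitochondrial ribosome, respiratory complexes and tricarboxylic acid cycle are above the controls in VNS-TAC 1 and below them in VNS-TAC 3, where the cytosolic ribosome is at 0.67.

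Base composition moved with the level in VNS-TAC 1. Across the 78 genes, the difference of VNS-TAC 1 from Ctrl-TAC had a Spearman correlation of 0.572 with the GC content of the transcript, near the 0.585 found over all genes with a known sequence. In VNS-TAC 2 and VNS-TAC 3 it was 0.267 and -0.120. These are correlations across genes of 1 library, which are not independent of each other. The members had a median GC content of 50.0%, against 50.6% for all genes tested. The transcripts are short, with a median of 1327.5 bases against 3108. With transcript length, the difference of VNS-TAC 1 had a correlation of -0.162 across the 78 genes and -0.404 over all genes. Less the median of all genes, the members stood at 0.38 in VNS-TAC 1 as deposited, at 0.37 with the GC trend removed and at 0.19 with the length trend removed. The members are near all genes in median GC content but not in length, so these values cannot weigh GC against length. The part of either was not tested.

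**Figure D5:**
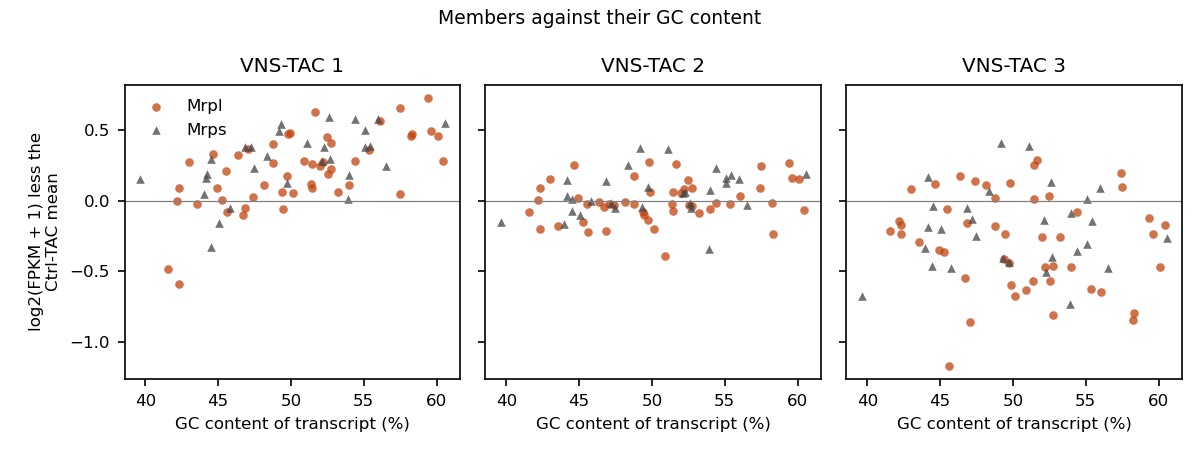
Level of each mitochondrial ribosomal protein gene in the 3 VNS-TAC libraries, as log2(FPKM + 1) less the Ctrl-TAC mean, against the GC content of its transcript in percent. Points slope upwards in VNS-TAC 1 (Spearman correlation 0.572 across genes) and lie mostly below 0 in VNS-TAC 3, with no such slope (-0.120).

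Heart muscle markers were at high levels in every library, as the tissue label says, with Myh6 between 3212 and 6324 FPKM. Summed over 12 cardiomyocyte markers, FPKM was 70304, 59973 and 48029 in the 3 VNS-TAC libraries, the order of the mitochondrial ribosomal genes, and between 53109.7 and 53687 in Ctrl-TAC, and the median log2 difference was 0.21, 0.13 and -0.25 in VNS-TAC 1, 2 and 3. The markers did not move as a set, since Actc1 stood at 14018, 8958 and 2667 FPKM against 9024, 9065 and 10501 and Tnnt2 at 7995, 9579 and 15154 FPKM against 7657, 7411 and 7014, and 5 of 12 were higher on average. Red cell genes followed the same order. The sum of 5 of them was 1503, 310.2 and 25.1 FPKM in the VNS-TAC libraries, with Ctrl-TAC between 183 and 578, with 1 of 5 higher on average. Of 6 macrophage markers none was higher on average, and their sum was 228, 143 and 116 FPKM against 164 to 174. Of 6 endothelial markers 1 was higher, with sums of 327, 289.6 and 259 against 323 to 365. The part of cell makeup in the levels of the ribosomal genes was not tested.

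Fibroblast markers were split. For VNS-TAC 1, 2 and 3 in turn, the sum of 6 was 276, 343 and 442 FPKM, with the Ctrl-TAC libraries at 409 to 457, a sum made up mostly of Dcn (152, 241 and 388 FPKM). Yet 4 of the 6 had their lowest value in VNS-TAC 3, as most ribosomal genes did, among them Col1a1 (41.8, 23.1 and 13.4 FPKM) and Lum (21.2, 22.1 and 8.07 FPKM). Their median log2 difference was -0.44, -0.34 and -1.02 in the VNS-TAC libraries, and 0 of 6 were higher on average. For 6 neutrophil markers the sum was 54.7, 46.6 and 101 against 2.49 to 6.25, with all 5 tested markers higher, and for 6 smooth muscle and pericyte markers 156, 182 and 176 against 189 to 316, with 0 of 6 higher. Atrial markers summed to 3839, 5479 and 9080.0 against 3051 to 9823 (1 of 6 higher) and adipocyte markers to 34.0, 51.0 and 42.4 against 33.0 to 41.0 (1 of 3 tested higher). Ucp1, which defines brown fat, was listed at 0 in 4 of the 6 libraries. Lymphocyte markers were all under the filter, with sums of 0.820 to 1.34 and 1.22 to 1.63 FPKM.

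Position in the genome bears on how these values can be read. The 78 genes lie on 17 chromosomes, with the most on chromosome 11 (11 genes) and chromosome 17 (8 genes). Whether the counting used strand, and which annotation it used, is not given in the sources used here. If it ignored strand, reads from bases that genes on opposite strands share cannot be told apart. Exons of 31 of the 78 genes share bases with another gene in GENCODE M21, 28 with a gene on the opposite strand. Of the members named in the text this applies to Mrpl58 (Ict1os), Mrpl14 (Tmem63b), Mrpl27 (Eme1), Mrpl43 (Twnk), Mrpl9 (Oaz3), Mrpl48 (Rab6a), Mrpl44 (Wdfy1), Mrpl12 (Gm16755), Mrpl10 (Gm11574), Mrpl33 (Gm43809 on the same strand), Mrpl49 (Syvn1), Mrpl19 (Gcfc2), Mrpl46 (Mrps11), Mrpl18 (Tcp1), Mrpl3 (Gm47106), Mrps26 (4930473A02Rik), Mrps18b (Gm16279), Mrps30 (B430218F22Rik), Mrps11 (Mrpl46), Mrps27 (6430562O15Rik), Mrps25 (Nr2c2) and Mrps6 (Gm49711 and Slc5a3 on the same strand). Pseudogenes carry the names of Mrpl23, Mrpl27, Mrpl48 and Mrps36.

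Many members start back to back with another gene. Starts were taken as the outer ends of genes in GENCODE M21. For 23 of the 78 genes, an opposite-strand protein-coding gene began within 1000 bases upstream or overlapped the start by up to 200 bases. Pairs that are back to back only by other starts are not counted, such as Mrpl46 and Mrps11 by their RefSeq positions. In 19 of the pairs found, both genes were tested. The signs of the fold changes matched in 7 of these 19 pairs. Mrps12 starts 172 bases from Sars2, a mitochondrial tRNA synthetase, and the log2 fold changes were -0.087 and 0.44. Mrps27 starts 81 bases from Ptcd2, an RNA-binding protein of mitochondria (-0.022 and 0.19), and Mrpl49 starts 59 bases from Fau, which encodes a protein of the cytosolic ribosome (-0.14 and 0.47). In VNS-TAC 3, Mrpl49 was the lowest of its 6 values, at 19.9 FPKM against 28.7, 26.4 and 25.4 in Ctrl-TAC, and Fau the highest of its own, at 739.8 FPKM against 425, 384 and 397.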

How the data were processed

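Per the labels' protocols, mRNA of 6 mouse heart samples was enriched on oligo-dT beads. The deposited table gives FPKM values made by the authors, per the file headers, to 2 decimals for 18019 NCBI gene IDs. The submitters' processing notes list HISAT, featureCounts 1.5.0-p3, DESeq 1.8.3 and GRCm38 with no role for each. The annotation and strand setting were not given in the sources used here. Groups were taken from the sample titles, since a treatment tag reads VNS for all samples. Ctrl-TAC columns were matched to samples by library name. The table numbers VNS-TAC columns 1 to 3 and the labels call these libraries 4 to 6, so the table's numbers were kept and each column was used only as a library of its group.

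Symbols came from the RefSeq table of GRCm38.p6 for 17890 IDs and from GENCODE M21 for 16 more, leaving 113 without one. GC content and length are those of the longest protein-coding transcript in GENCODE M21. The 11422 genes whose mean reached 1 FPKM were compared as log2(FPKM + 1), a scale that understates fold changes of low genes, with limma 3.58.1 in R 4.3.3 (prior variance with an intensity trend) and p-values adjusted by Benjamini-Hochberg over all of them at a threshold of 0.05. Without read depth, counting error could not be given. Tables and figures used Python 3.11.15, pandas 2.3.3, numpy 2.4.6 and matplotlib 3.10.9. The fit was also run on simulated data with independent genes and the same spread in both groups. The data here had a wider spread in VNS-TAC and shifts shared by many genes, so the simulation does not check the fit under those conditions.

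The members, lists and tests were chosen with earlier results of these data known. Genes named by rule were, in each subunit, the 4 higher and 4 lower with the smallest p and the 3 most abundant, with a set chosen for their role, and in related lists the higher and the lower gene with the smallest p. Other genes were named after their values were seen. Alternatives were other pseudocounts, filters, scalings and limma options, GC or length trend removed, and each library left out in turn.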

Additional observations from a re-analysis of the deposited data

How the results depend on the processing

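With each library left out in turn, the median log2 fold change was -0.17 to 0.093 for the large subunit, -0.070 to 0.17 for the small and -0.10 to -0.046 for all genes, and less that of all genes it was -0.12 to 0.19 and -0.025 to 0.26. In the same order of subunits, 12 to 36 and 9 to 23 members were higher, and 0 to 10 and 2 to 8 had an unadjusted p under 0.05 in limma. All genes gave 0 to 3 past the adjusted threshold, and the members 0 in every case. The extremes for the subunits came without VNS-TAC 1 and without VNS-TAC 3. Genes past the adjusted threshold numbered 0 of all genes in the reported fit, 1 with a mean of at least 5 FPKM, 2 with size factors, 2 with quantile normalization, 2 with the GC trend removed and 1016 with array weights, which also gave 2 members, Mrps26 and Mrps10. Large subunit members with an unadjusted p under 0.05 numbered 1 as reported, 2 with size factors, quantile normalization, an equal sum per library or the length trend removed, 3 with no filter or the GC trend removed and 9 with array weights. For the small subunit they numbered 2, and 4 with the GC trend removed or array weights. The share of all genes at that unadjusted p is given above for the reported fit only. Counts from the other fits, also those with a library left out, are therefore not a result about the members. With an equal sum per library 13 large subunit genes were higher. The median of all genes was 0.012 with quantile normalization, 0.00155 with the GC trend removed and -0.00737 with that of length removed. Of the 27 named members, 11 changed the sign of their log2 fold change under at least 1 of 18 alternatives, and none of these passed the adjusted threshold there. These values were, with size factors Mrpl12 0.0614, Mrpl45 0.0561 and Mrps21 0.0248; with quantile normalization Mrpl45 0.00325; with an equal sum per library Mrpl44 -0.0607 and Mrps23 -0.00915. They were, with array weights Mrpl12 0.00671 and Mrpl45 0.0465; with the GC trend removed Mrpl45 0.0383, Mrpl1 0.0219, Mrps18c 0.0914, Mrps25 0.0400 and Mrps14 0.0952; with the length trend removed Mrpl44 -0.00152, Mrpl45 0.0268 and Mrps25 0.0112. With each library left out in turn, the ranges were Mrpl44 -0.10 to 0.15, Mrps36 -0.0724 to 0.18, Mrps23 -0.0401 to 0.17, Mrpl12 -0.31 to 0.30, Mrpl45 -0.27 to 0.27, Mrps21 -0.23 to 0.12 and Mrps12 -0.25 to 0.11. The cause was not tested in any case. No paired analysis was possible because VNS-TAC columns and sample labels carry different numbers. With 3 libraries in each group and no read depth, differences of the size seen here are close to the SE of a gene.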

Other observations

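Of the 8 highest log2 fold changes among the 78 genes, 4 belong to genes that lie close together on chromosome 17, between 45685722 and 47381418 (GRCm38), namely Mrps10 (0.39), Mrpl2 (0.33), Mrpl14 (0.29) and Mrps18a (0.28). This stretch was looked at after the values were seen. The 28 other genes tested in it had a median log2 fold change of 0.011, against -0.084 for all genes tested. Of these 28, 15 were higher, while 38.2% of all genes were. Without overlap, 2 were higher (7.14%, against 8.01% of all genes) and 0 lower (against 17.4% of all genes). These differences were not tested. Mrpl14, at 159, 115 and 87.8 FPKM in VNS-TAC 1, 2 and 3 and at 99.97, 94.7 and 92.2 in Ctrl-TAC 1, 2 and 3, overlapped.

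Mrpl46 and Mrps11 lie side by side on chromosome 7 on opposite strands, with exons that share bases. Mrpl46 stood at 32.7, 27.0 and 15.5 FPKM in VNS-TAC 1, 2 and 3 and at 27.8, 27.1 and 28.5 in Ctrl-TAC 1, 2 and 3, and Mrps11 at 32.4, 25.4 and 18.1 FPKM against 22.04, 24.6 and 21.2 in the same order. VNS-TAC 1 was the highest and VNS-TAC 3 the lowest of the 6 libraries for both, while the log2 fold changes between groups were -0.21 and 0.12.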
